A study of Mus musculus with 16 samples.

Results

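The 10 genes described here encode the carriers that move bile acids and other organic anions across the membranes of liver cells. They were found by symbol in the count tables, where each of the 10 had 1 row among 47729 genes. Slc10a1, the sodium-dependent bile acid carrier Ntcp, and the organic anion transporting polypeptides encoded by Slco1a1, Slco1a4, Slco1b2, Slco2b1 and Slco2a1 bring their substrates into cells. The pumps encoded by Abcb11, Abcb4, Abcc2 and Abcc3 use ATP to send substrates or phospholipid out. RNA had been sequenced from ECs, HSCs, Kupffer cells and hepatocytes of unchallenged adult mouse livers, with 2 libraries for each pairing of cell type and label and 16 in all. Mice labelled KO carried a floxed Zeb2 exon and the tamoxifen-inducible Cdh5-Cre ERT2 driver, which is active in ECs, on a background with an eGFP reporter of recombination. Mice labelled WT were their Cre-negative littermates. Both groups had received 2 mg tamoxifen per day for 5 days, and the study's general statement for its mice is 8-week-old males, with RNA taken 2 weeks after the last injection. Hepatocytes were separated by centrifugation, and the other 3 cell types were sorted, HSCs by their UV signal, Kupffer cells by F4/80 and ECs by Meca32.

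In the liver, bile acids return from the gut in portal blood and are taken up at the sinusoidal face of the hepatocyte, largely by Ntcp, with the Slco1 carriers taking up unconjugated bile acids, bilirubin and drugs. The bile salt export pump encoded by Abcb11 then moves them into the bile canaliculus, Abcb4 supplies the phospholipid that shields the ducts from them, and Abcc2 exports conjugated bilirubin and glutathione conjugates. Abcc3 sits on the opposite side of the cell and returns conjugates to blood, while Slco2a1 is best known as the carrier that takes up prostaglandins, including in vascular endothelium.

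Depth was similar in all libraries, with 12872706 to 15690506 reads on genes, so that 3 counts, taken as the floor of detection, came to 0.191 to 0.233 CPM, that is, counts scaled to a library total of 1000000. Reads that fell in no annotated feature or on several places differed between libraries, from 1.31% to 14.04% and from 24.77% to 47.87% of reads. The sorted populations carried their own markers, but all of them also held hepatocyte transcripts. The median of 11 hepatocyte markers, such as Alb and Apoa1, stood at 10.8% and 23.9% of the WT hepatocyte level in the EC libraries labelled WT and at 2.46% and 1.94% in those labelled KO. In HSCs the same median was 3.31% and 7.33% in WT and 0.517% and 1.15% in KO libraries, and in Kupffer cells it lay between 5.18% and 11.9%. Of the 11 markers, none was at 0 in any library. The Kupffer cell library WT 31 stood apart from the other 3, with 9160 CPM of Marco against 368 to 670 CPM. The count of Zeb2 was not lower in ECs labelled KO, at 199 and 130 CPM against 106 CPM in each WT library. That count pools all exons of a gene with a single floxed exon and need not show its loss. The paper itself reports efficient loss of Zeb2 in ECs, both in mRNA and by the share of recombined cells. The groups are called by their labels throughout.

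Coordinates are those of GENCODE release M21 on GRCm38, the build named in the labels. Slco1a1 (chromosome 6, 141907282 to 141946962), Slco1a4 (141805440 to 141856199) and Slco1b2 (141629518 to 141686646) are neighbours. Slc10a1 lies on chromosome 12 (80953183 to 80968705), Slco2b1 on 7 (99657804 to 99711340) and Slco2a1 on 9 (102988712 to 103096002). Among the pumps, Abcb11 lies on chromosome 2 (69238282 to 69342616), Abcb4 on 5 (8893717 to 8959231), Abcc2 on 19 (43782192 to 43840740) and Abcc3 on 11 (94343295 to 94392997). All 10 are protein-coding genes and their counts pool every exon. Reads can be shared with copies or partners at a few places. Slco1a1 and Slco1a4 had 84 windows of 50 bases in common out of 5321 and 6407, and 7.91% of the exonic bases of Slco2b1 lie under exons of Gm15635 on the opposite strand.

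Promoters were examined because members shared a direction in some cell types and parted in others. RefSeq promoter entries on GRCm38.p6 were found for 9 of the 10 members, from 250 bases before to 50 after each start site. Abcc3 had no entry. The 250 upstream bases of a carrier with the hepatocyte pattern in which most motifs were found (Slco1b2), of a carrier past the threshold between labels in ECs (Slco1a1), and of those that peaked outside hepatocytes by CPM (Slco2a1 and Slco2b1) are given 5′ to 3′ on the strand of the gene. The single RefSeq start of Slco2a1 lies 19775 bases inside the gene as annotated by GENCODE. Capitals mark matches, on either strand, to GTTAAT, a part of the site of HNF1, to AGGTCA, the core of many nuclear receptor sites, and to CACCTG, the E2 box that ZEB proteins can bind.
Slco1b2, chr6:141629268-141629517, plus strand: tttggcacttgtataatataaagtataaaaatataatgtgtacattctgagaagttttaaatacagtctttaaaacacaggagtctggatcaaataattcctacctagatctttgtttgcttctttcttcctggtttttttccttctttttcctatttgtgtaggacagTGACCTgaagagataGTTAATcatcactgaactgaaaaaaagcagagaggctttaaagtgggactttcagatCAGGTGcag
Slco1a1, chr6:141946963-141947212, minus strand: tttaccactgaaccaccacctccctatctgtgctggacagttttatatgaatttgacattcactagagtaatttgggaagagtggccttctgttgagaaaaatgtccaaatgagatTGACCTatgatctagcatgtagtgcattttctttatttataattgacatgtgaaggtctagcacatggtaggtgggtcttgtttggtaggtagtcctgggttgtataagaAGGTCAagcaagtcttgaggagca
Slco2a1, chr9:103008237-103008486, plus strand: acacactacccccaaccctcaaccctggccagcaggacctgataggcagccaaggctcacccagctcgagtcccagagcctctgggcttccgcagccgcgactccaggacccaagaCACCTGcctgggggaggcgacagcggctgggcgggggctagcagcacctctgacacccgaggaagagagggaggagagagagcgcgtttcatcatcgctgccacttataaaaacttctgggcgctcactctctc
Slco2b1, chr7:99711341-99711590, minus strand: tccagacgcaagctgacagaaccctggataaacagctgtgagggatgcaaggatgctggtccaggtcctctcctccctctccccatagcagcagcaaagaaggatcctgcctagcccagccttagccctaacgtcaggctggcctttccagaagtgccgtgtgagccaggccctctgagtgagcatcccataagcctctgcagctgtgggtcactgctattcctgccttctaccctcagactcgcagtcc
In these windows Slco1b2 held 1 match to each of the 3 motifs, Slco1a1 held AGGTCA 2 times, Slco2a1 held CACCTG 1 time and Slco2b1 held no match. The 300-base windows of Abcb11 and Abcc2 each held AGGTCA 1 time, while those of Slco1a4 and Abcb4 held 0 of the 3 motifs. Slc10a1 had none in the window at its outermost start and AGGTCA 1 time in that of an inner start. Over all 32851 windows in the table, GTTAAT was found in 7.1%, AGGTCA in 16.3% and CACCTG in 20.2%. The longer letters CAAAGTCCA, an HNF4 site, were in 0.475% of all windows and in none of the members' windows. AGGTCA and CACCTG were therefore common letters in promoters generally, and the matches are a description of the sequence only.

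Hepatocytes had the highest CPM of 7 members in every comparison of cell type means, while Slco2a1 was highest in ECs, Slco2b1 in HSCs and Abcc3 in Kupffer cells. The choice of scale mattered for these. TMM normalization gave the hepatocyte libraries factors of 0.497 to 0.588 and the others 1.01 to 1.47. Against scaling by library totals, it moved the median gene of ECs, HSCs and Kupffer cells relative to hepatocytes by 1.36, 1.12 and 1.04 on the log2 scale toward hepatocytes. Of all genes past the threshold, 56.6%, 58.3% and 52.7% were higher in these 3 cell types than in hepatocytes with TMM and 82.6%, 80.6% and 76.7% with library totals. Between ECs and HSCs the share moved from 50.9% to 64.6%, and between ECs and Kupffer cells from 54.7% to 70.1%. Levels below are CPM, that is, scaled by library totals, and log2 differences and folds with a test are on the TMM scale of edgeR.

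**Figure D1:**
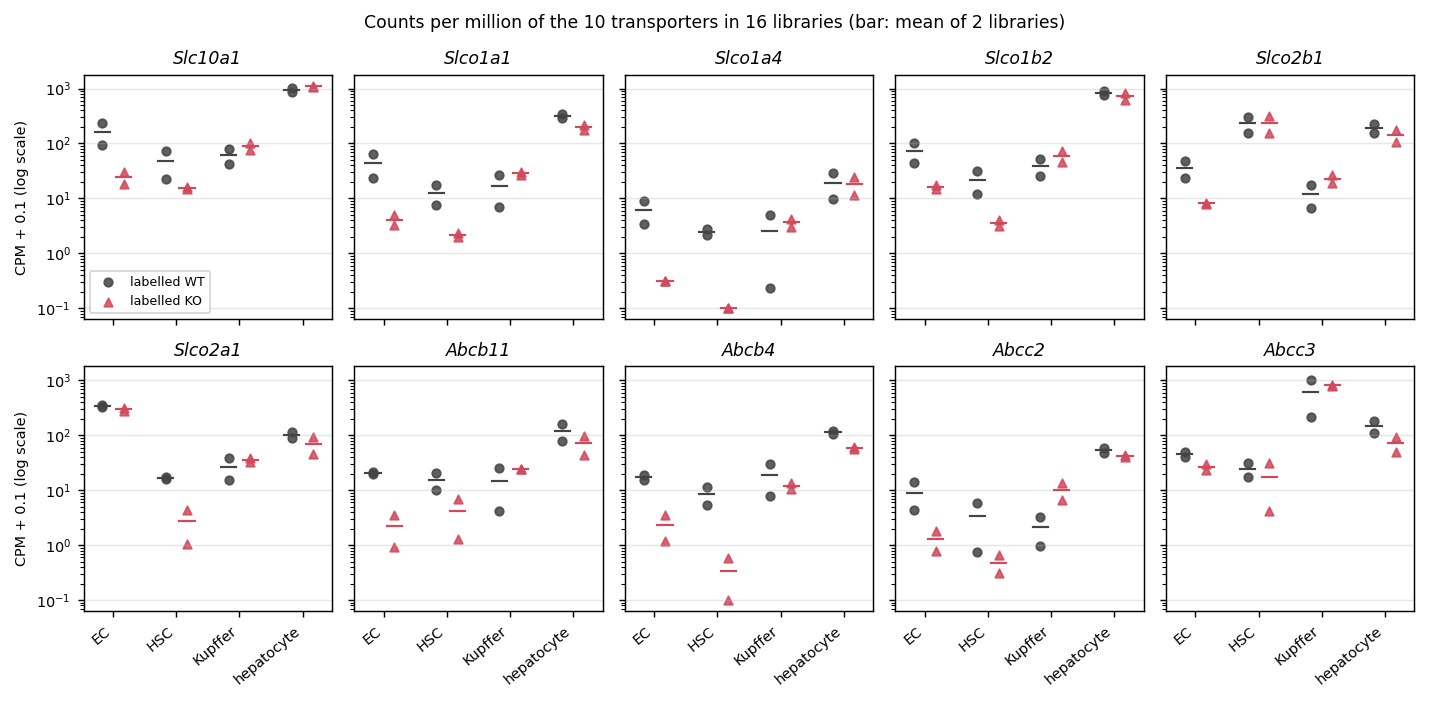
CPM of each member in the 16 libraries on a log axis (0.1 CPM was added so that values of 0 can be drawn), with grey circles for libraries labelled WT, red triangles for those labelled KO and bars for the mean of 2 libraries. Slco2a1 is highest in ECs, Slco2b1 overlaps between HSCs and hepatocytes, Abcc3 is highest in Kupffer cells, and the other 7 are highest in hepatocytes.

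Slc10a1 was the most abundant member in hepatocytes. Its level there was 858 and 1010 CPM in the WT libraries and 1060 and 1130 CPM in the KO libraries. ECs had 92.7 and 233 CPM in WT and 30.3 and 17.9 CPM in KO libraries. HSCs had 22.2 and 72.1 CPM in WT and 15.0 and 15.8 CPM in KO libraries, and Kupffer cells 42.6 and 80.2 CPM in WT and 76.9 and 102 CPM in KO libraries. No library of the other 3 cell types reached the lowest hepatocyte value. The difference was past the threshold for each of them, at -5.40 ± 0.44 (log2, SE) in ECs (adjusted p = 6.76e-07), -6.36 ± 0.46 in HSCs (adjusted p = 2.53e-07) and -4.84 ± 0.43 in Kupffer cells (adjusted p = 1.56e-06).

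The Slco1 carriers followed the same order of hepatocytes above all others. Slco1b2, which encodes a carrier known as restricted to the liver, had 609 to 898 CPM in hepatocytes, 14.6 to 103 CPM in ECs, 3.11 to 31.4 CPM in HSCs and 25.4 to 73.8 CPM in Kupffer cells. Slco1a1 had 343 and 294 CPM in WT and 218 and 176 CPM in KO hepatocytes, and its highest value elsewhere was 65.6 CPM in the EC library WT 38. Slco1a4 was the scarcest member, with 9.61 to 28.4 CPM in hepatocytes and at most 9.01 CPM in the other cell types. Its hepatocyte values did not overlap those of any other cell type.

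The 3 canalicular pumps had the same order. Abcb11, the bile salt export pump, had 44.7 to 160 CPM in hepatocytes and 0.836 to 25.0 CPM elsewhere. Abcb4 had 57.6 to 120 CPM in hepatocytes and 0 to 30.3 CPM elsewhere, and Abcc2 had 41.1 to 58.4 CPM against 0.207 to 13.8 CPM. None of these ranges overlapped. Together with Slc10a1 and the Slco1 carriers, 7 of 7 members were lower in each of ECs, HSCs and Kupffer cells than in hepatocytes past the threshold. With WT libraries alone the call for Slco1a4 in ECs was lost, its difference going from -5.34 to -2.97 (adjusted p = 0.0664).

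Among all 17214 genes tested, 25.5% were lower in ECs than in hepatocytes and 33.2% higher, against 9 and 0 of the 10 members. For HSCs the shares were 24.4% lower and 34.0% higher, again against 9 and 0 members, and for Kupffer cells 26.3% lower and 29.3% higher, against 9 and 1. The median log2 difference of the members from hepatocytes was -5.18 in ECs, -6.44 in HSCs and -4.05 in Kupffer cells, beside 0.54, 0.60 and 0.24 for all genes. Fewer cells of a type and less RNA per cell cannot be told apart in such bulk libraries.

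Per kilobase of exon, which allows genes to be compared with each other, the order in hepatocytes was led by Slc10a1 at 461 ± 52.1 CPM per kb (mean ± SD, n = 4), Slco1b2 at 158 ± 25.1 and Slco1a1 at 48.9 ± 14.2. The first 3 did not overlap in their ranges. Slco2b1 followed at 28.2 ± 8.58 CPM per kb, then Abcc3 at 19.1 ± 9.57, Abcb11 at 18.6 ± 9.42, Abcb4 at 9.16 ± 3.38, Slco2a1 at 6.43 ± 2.16 and Abcc2 at 5.61 ± 0.901. From Slco1a1 to Abcc2 each range overlapped that of the next gene in the order. Slco1a4 came last at 2.87 ± 1.45 CPM per kb, below all values of Abcc2. In ECs the first ranks were Slc10a1 at 42.5 ± 44.8 and Slco2a1 at 23.6 ± 2.34 CPM per kb, with overlapping ranges. HSCs were led by Slco2b1 at 39.6 ± 15.7 and Kupffer cells by Abcc3 at 125 ± 60.8 CPM per kb, and in both the range of the leading gene overlapped that of Slc10a1 next to it. The annotated exons of Slco2a1 add up to 13545 bases, the longest of the members, which lowers its value per kilobase.

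Slco2a1, the prostaglandin carrier, had its highest level in ECs. The EC libraries held 333 and 352 CPM in WT and 318 and 277 CPM in KO. Hepatocytes held 116 and 90.1 CPM in WT and 95.1 and 46.6 CPM in KO libraries. Every EC library was above every hepatocyte library. Kupffer cells had 15.2 and 37.9 CPM in WT and 32.4 and 39.0 CPM in KO libraries, and HSCs 17.2 and 15.7 CPM in WT and 4.29 and 0.968 CPM in KO libraries. ECs were 41.3-fold above HSCs (log2 5.37 ± 0.42, adjusted p = 2.44e-06) and 8.45-fold above Kupffer cells (log2 3.08 ± 0.37, adjusted p = 5.84e-05). Against hepatocytes, the EC level was not past the threshold on the TMM scale (log2 0.54 ± 0.34, adjusted p = 0.195), while scaled by library totals it was 1.90 higher on the log2 scale (adjusted p = 0.00114). Without a filter on low counts it was 0.77 higher (adjusted p = 0.0129).

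Slco2b1, a carrier of steroid sulphates and drugs, had its highest mean CPM in HSCs, with hepatocytes close to them. HSCs held 310 and 153 CPM in WT and 323 and 157 CPM in KO libraries, and hepatocytes 231 and 158 CPM in WT and 175 and 107 CPM in KO libraries. These ranges overlapped. ECs held 23.8 and 48.0 CPM in WT and 8.22 and 7.79 CPM in KO libraries, and Kupffer cells 6.64 and 17.6 CPM in WT and 26.1 and 19.0 CPM in KO libraries. HSCs were above ECs 16.5-fold (EC minus HSC, log2 -4.04 ± 0.38, adjusted p = 1.12e-05) and above Kupffer cells 13.7-fold (log2 3.78 ± 0.38, adjusted p = 1.20e-05). HSCs against hepatocytes gave -0.61 ± 0.34 on the TMM scale (adjusted p = 0.139) and 0.51 scaled by library totals (adjusted p = 0.242), so that the direction depended on the scale and neither passed.

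Abcc3, the pump that returns conjugates to blood, had its highest level in Kupffer cells. Their libraries held 215 and 1010 CPM in WT and 835 and 796 CPM in KO, with the lowest value in library WT 31, which stood apart. Hepatocytes held 181 and 110 CPM in WT and 94.4 and 49.3 CPM in KO libraries, all below the 4 Kupffer cell values. ECs held 50.5 and 40.4 CPM in WT and 29.8 and 23.6 CPM in KO libraries, and HSCs 30.9 and 17.7 CPM in WT and 4.15 and 31.0 CPM in KO libraries. Kupffer cells were 3.28-fold above hepatocytes (log2 1.71 ± 0.55, adjusted p = 0.0192), 24.6-fold above ECs (EC minus Kupffer, log2 -4.62 ± 0.62, adjusted p = 0.000134) and 34.4-fold above HSCs (HSC minus Kupffer, log2 -5.10 ± 0.64, adjusted p = 6.32e-05). The difference from hepatocytes was 1.04 with the WT libraries alone (adjusted p = 0.212) and 1.29 without Kupffer cell library WT 39 (adjusted p = 0.0674), both short of the threshold. Without WT 31 it was 2.31 (adjusted p = 0.00433).

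Abcc3 took most of the members' reads in all 4 Kupffer cell libraries, and Slco2a1 and Slco2b1 took most of them in 3 of 4 EC and 3 of 4 HSC libraries. Slco2a1 made up 54.6% and 38.9% of the reads on the 10 members in WT ECs and 77.1% and 78.7% in the KO libraries. In EC library WT 38 and HSC library WT 40 the 7 members with the hepatocyte pattern took more, at 51.4% and 46.3%. Slco2b1 made up 44.1% to 91.5% in HSCs and Abcc3 66.2% to 78.5% in Kupffer cells, while in hepatocytes Slco2a1 took 1.87% to 4.06%, Slco2b1 4.30% to 8.08% and Abcc3 1.98% to 6.31%. All 10 members together took 0.248% to 0.286% of gene reads in hepatocytes and 0.0218% to 0.129% in the other libraries.

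**Figure D2:**
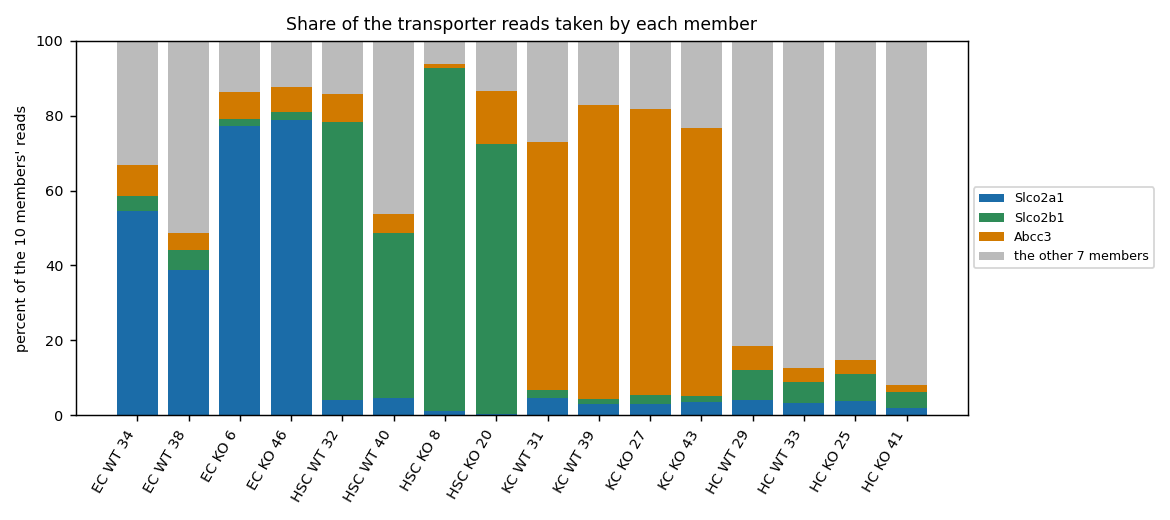
Stacked bars give the percent of all reads on the 10 members that fell on Slco2a1 (blue), Slco2b1 (green), Abcc3 (orange) and the other 7 (grey) in each of the 16 libraries. Blue fills 38.9% to 78.7% of the EC bars, green 44.1% to 91.5% of the HSC bars and orange 66.2% to 78.5% of the Kupffer cell bars. Grey leads in the 4 hepatocyte bars, in EC WT 38 (51.4%) and in HSC WT 40 (46.3%).

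Since every sorted library held hepatocyte transcripts, each member was expressed as percent of its mean in the 2 WT hepatocyte libraries and set beside the median of the 11 hepatocyte markers in the same library. For the 7 members with the hepatocyte pattern, the median multiple of the marker value over 4 libraries lay between 0.643 and 1.12 in ECs, 0.469 and 2.44 in HSCs and 0.666 and 1.92 in Kupffer cells. Over single libraries, the markers spread about their own median from 0.621 to 1.35 times in ECs, 0.289 to 2.35 times in HSCs and 0.503 to 1.69 times in Kupffer cells. The medians of Abcb11 in HSCs (2.44) and Kupffer cells (1.92) and of Slco1a4 in Kupffer cells (1.74) were above that spread. A median over 4 libraries varies less than values of single libraries. Slc10a1 was at 0.925 to 1.32 times the marker median in ECs, 0.721 to 3.11 times in HSCs and 0.881 to 1.08 times in Kupffer cells. Over single libraries the 7 members ranged from 0.284 to 1.98 times in ECs, 0 to 4.98 times in HSCs and 0.136 to 3.35 times in Kupffer cells. In each cell type this was wider than the spread of the markers. The highest value was that of Abcb11 in HSC library KO 20 with 99 counts, and the lowest in Kupffer cells was that of Slco1a4 in library WT 31 with 2 counts.

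The other 3 stood far above the markers in 1 cell type each. Slco2a1 in ECs reached 322% to 341% of its hepatocyte level in WT and 268% to 308% in KO libraries, which was 14.2 to 138 times the markers. Slco2b1 in HSCs reached 78.9% to 166%, which was 48.2 and 10.8 times the markers in WT and 321 and 70.3 times in KO libraries. Abcc3 in Kupffer cells reached 147% to 696%, or 28.4 to 87.0 times. For comparison, 851 genes with at least 10 CPM in WT hepatocytes and at least 8 times their WT Kupffer cell level had multiples from the 5th to the 95th percentile of 0.124 to 7.91 in ECs and 0 to 64.7 in HSCs. Their range in Kupffer cells is fixed by that choice and gives no comparison for Abcc3. In HSCs, Slco2b1 lay within the range of these genes in both WT libraries and above it in both KO libraries. The multiples do not depend on how libraries are scaled, because a member and the markers are taken from the same library.

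Outside their leading cell type these 3 varied. Slco2b1 was at 1.03 to 1.14 times the markers in WT ECs, 1.72 to 2.06 times in KO ECs and 0.658 to 1.43 times in Kupffer cells. Slco2a1 was at 2.83 to 4.59 times in Kupffer cells and 0.817 to 8.03 times in HSCs. Abcc3 was at 1.16 to 3.22 times in WT ECs, 8.33 to 8.36 times in KO ECs and 1.66 to 18.5 times in HSCs. Markers of other cell types moved with these values in part. In HSCs the summed Kupffer cell markers ranged from 531 to 2730 CPM, and Abcc3 was highest, at 30.9 and 31.0 CPM, in the libraries with the most Clec4f, WT 32 with 431 CPM and KO 20 with 654 CPM. The part of such transcripts in the level of Abcc3 or Slco2a1 was not tested.

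**Figure D3:**
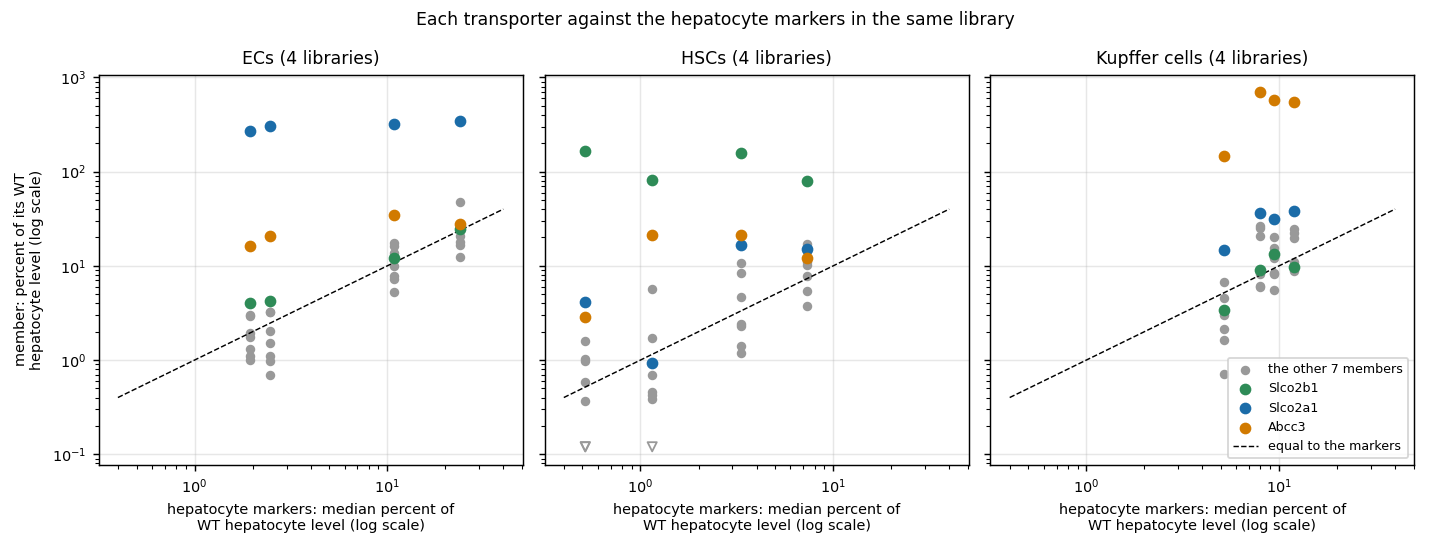
Each point is a member in a library, with its percent of the WT hepatocyte level on the vertical log axis and the median percent of 11 hepatocyte markers in that library on the horizontal log axis; the dashed line marks equality and open triangles at the bottom stand for 3 values of 0 in HSC libraries labelled KO. Grey points (the other 7 members) lie on both sides of the line, between 0.284 and 1.98 times the markers in ECs and up to 4.98 times in HSCs and 3.35 times in Kupffer cells, while Slco2a1 in ECs, Slco2b1 in HSCs and Abcc3 in Kupffer cells lie at 268% to 341%, 78.9% to 166% and 147% to 696% at every marker level.

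The genes whose level over the 16 libraries was most like these 3 were sought among 10794 genes with at least 10 CPM in a cell type, by Pearson's r of log2(CPM + 1), given as a description, since libraries of a cell type share its whole profile. Slco2a1 was most like S1pr1, a receptor for sphingosine 1-phosphate (r = 0.953), Aass (r = 0.949) and Car8 (r = 0.949). S1pr1 had a mean of 341 CPM in ECs and 64.0 CPM in hepatocytes. Slco2b1 was most like the complement genes C1s1 (r = 0.984) and Serping1 (r = 0.973) and like Rarres2, which encodes chemerin (r = 0.966), and C1s1 had 504 CPM in HSCs and 319 CPM in hepatocytes. Abcc3 was most like Shtn1 (r = 0.963), Pik3ap1 (r = 0.950) and Rab32 (r = 0.948), of which Rab32 had 441 CPM in Kupffer cells and 71.6 CPM in hepatocytes.

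Differences among ECs, HSCs and Kupffer cells were then tested. HSCs were lower than Kupffer cells in 8 members and higher in 1, Slco2b1, where all genes gave 20.6% lower and 22.3% higher. Abcb11 was the member that did not pass there (-1.26 ± 0.61, adjusted p = 0.114). Hepatocyte markers differed the same way, with their median at 0.517% to 7.33% in HSCs and 5.18% to 11.9% in Kupffer cells, and with WT libraries alone 2 members passed, beside 21.2% of all genes. ECs were higher than HSCs in Slco2a1, Slco1b2 (1.72 ± 0.36, adjusted p = 0.00418) and Abcb4 (1.87 ± 0.59, adjusted p = 0.0364) and lower in Slco2b1, while 13.3% of all genes were higher and 12.8% lower. The call for Abcb4 was lost without EC library WT 34, WT 38 or KO 46 and without HSC library WT 32 or KO 8 (adjusted p from 0.0709 to 0.203). With WT libraries alone neither Abcb4 (0.76, adjusted p = 0.429) nor Slco1b2 (1.48, adjusted p = 0.140) passed, and 2 members did beside 10.2% of all genes. Without HSC library WT 40, which had more hepatocyte transcript than the other HSC libraries, 7 members passed beside 18.8% of all genes. ECs were higher than Kupffer cells in Slco2a1 and lower in Abcc3 and Abcb4 (-1.55 ± 0.49, adjusted p = 0.0311), beside 17.5% higher and 14.5% lower of all genes. Here Abcb4 lost its call without EC library WT 34, WT 38 or KO 6 and without Kupffer cell library WT 39, KO 27 or KO 43 (adjusted p from 0.0501 to 0.135), with library totals (adjusted p = 0.0755) and with WT libraries alone (-0.45, adjusted p = 0.627). Without Kupffer cell library WT 31, 6 members passed beside 24.1% of all genes. The part of hepatocyte transcripts in these differences was not tested.

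The libraries labelled KO were then compared with those labelled WT in each cell type. In ECs, Slc10a1 fell 6.77-fold, from 92.7 and 233 CPM in the libraries labelled WT to 30.3 and 17.9 CPM in those labelled KO (log2 -2.76 ± 0.47, adjusted p = 0.0454), and Slco1a1 fell 11.1-fold, from 23.1 and 65.6 CPM to 4.80 and 3.20 CPM (log2 -3.47 ± 0.55, adjusted p = 0.0394). These 2 members passed, against 1.97% of the 14631 genes tested in the same direction. The direction is that of the label, since the Zeb2 count pooled over all exons was not lower in the KO libraries and need not show the deletion. Of the others, Slco1b2 (-2.20 ± 0.42), Slco2b1 (-2.16 ± 0.40), Slco1a4 (-4.81 ± 0.92), Abcb11 (-3.22 ± 0.69), Abcb4 (-2.90 ± 0.62) and Abcc2 (-2.88 ± 0.82) had adjusted p between 0.0559 and 0.174. Slco1a4 rested on 3 counts in each KO library. Slco2a1, with 4767 and 4526 counts in WT and 4567 and 3984 counts in KO libraries, gave -0.20 ± 0.21 (adjusted p = 0.712), and Abcc3 gave -0.77 ± 0.26 (adjusted p = 0.246).

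In all 10 members both EC libraries labelled KO were below both labelled WT, a pattern found in 24.1% of the genes tested. The hepatocyte markers had the same pattern, with 11 of 11 past the threshold between -3.14 and -2.72 and a median of -2.93, beside -2.82 for the members and -0.01 for all genes. Their summed level ranged from 15200 to 31700 CPM in WT and from 2640 to 3560 CPM in KO ECs. The EC markers gave a median of 0.01, with 0 of 10 past the threshold by edgeR or DESeq2 and 0 at an unadjusted p under 0.05. The Kupffer cell markers gave a median of 0.84 and the HSC markers -1.43, with 0 past the threshold in edgeR. Of these, 5 and 7 had an unadjusted p under 0.05, beside 2192 of the 14631 genes tested. DESeq2 called 1 Kupffer cell marker higher and 5 HSC markers lower. Set against the marker median of its own library, Slc10a1 was at 0.925 to 1.04 times in WT and 0.991 to 1.32 times in KO ECs, with overlap. Slco1a1 was at 0.673 to 0.861 times in WT and 0.517 to 0.614 times in KO ECs, without overlap. The part of hepatocyte transcripts in the fall of both members was not tested.

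The number of members past the threshold in ECs depended on the fit. It was 8 with DESeq2, where 5.85% of genes were called lower, 8 without a filter on low counts, where the share was 4.36%, 4 with all 16 libraries in a single fit, where it was 2.41%, and 0 with scaling by library totals alone (adjusted p = 0.0664 for Slc10a1 and 0.0546 for Slco1a1). It was also 0 without EC library KO 6 or without KO 46, 2 without WT 38 and 6 without WT 34, where 4.39% of all genes passed in either direction. Leaving out WT 38, the library with most hepatocyte transcript, moved Slc10a1 to -1.98 and Slco1a1 to -2.56, changes in fold of over 1.5 times.

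Other genes of bile acid handling in ECs went the same way as the members. Of 10 bile acid synthesis genes tested, 4 fell and 0 rose, beside 1.97% of all genes lower, with a median of -2.27. All 10 were below 0 and 9 had an unadjusted p under 0.05, beside 2192 of the 14631 genes tested. DESeq2 called 5.85% of all genes lower and 9 of the 10 synthesis genes. The hepatocyte markers, with a median of -2.93 and 11 of 11 lower, moved with them and with the regulators, and their part in these values was not tested. Named by the rule for the lists, Slc27a5, which encodes a bile acid CoA ligase, fell from 307 to 43.5 CPM (-2.82 ± 0.40, adjusted p = 0.0312), Cyp8b1, the sterol 12-alpha-hydroxylase, from 127 to 27.1 CPM (-2.23 ± 0.34, adjusted p = 0.0361), and Scp2, which encodes a peroxisomal thiolase and sterol carrier, from 615 to 176 CPM (-1.80 ± 0.28, adjusted p = 0.0374). Of 10 regulators, 1 fell, Nr0b2, the bile acid-induced repressor SHP, from 42.2 to 4.04 CPM (-3.37 ± 0.37, adjusted p = 0.0245). The regulators had a median of -2.64, with 9 of 10 below 0, 9 at an unadjusted p under 0.05 and 7 called lower by DESeq2. The other 2 named by the rule, which takes the highest levels, had the smallest differences of the 10. Rxra, with 52.3 ± 14.9 CPM in ECs (SD, n = 4), gave -0.66 ± 0.25 and Nr5a2, with 31.4 ± 4.69 CPM, gave 0.10 ± 0.27, neither past the threshold.

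Transporters outside the 10 gave 0 of 8 uptake genes and 0 of 11 efflux genes past the threshold in ECs. At an unadjusted p under 0.05 there were 3 and 3, beside 2192 of the 14631 genes tested. DESeq2 called 2 and 2 lower, beside 5.85% of all genes. Abcc4, a pump for prostanoids and cyclic nucleotides, had 78.4 ± 7.94 CPM in ECs, and Abcg2 and Abcc5 had 65.4 ± 16.9 and 63.4 ± 13.4 CPM. Abcc4 was higher in ECs than in hepatocytes (7.59 ± 0.53, adjusted p = 2.43e-07). Among 13 prostanoid genes tested between labels, 1 fell, Ptgds, a prostaglandin D synthase that was also present in hepatocytes at 95.9 ± 66.9 CPM, from 15.5 to 0.869 CPM in ECs (-4.12 ± 0.61, adjusted p = 0.0329). The genes with the highest level beside Slco2a1 in ECs were Ptgs1, which encodes cyclooxygenase 1, with 607 ± 161 CPM, and the thromboxane receptor gene Tbxa2r with 256 ± 119 CPM. Neither passed, at 0.61 ± 0.27 and 0.71 ± 0.41.

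In HSCs, edgeR called 0% of 14390 genes between labels and 0 of the 9 members tested, with 6 members and 1259 genes at an unadjusted p under 0.05. DESeq2 called 5 members lower, beside 391 lower and 17 higher of all genes, 2.77% of those it tested being lower. Abcc2 did not pass the filter on low counts. Both KO libraries were below both WT libraries in 7 of the 9 members tested, and in Abcc2, a pattern found in 19.3% of the genes tested. The values were -1.62 ± 0.55 for Slc10a1, -2.58 ± 0.59 for Slco1a1, -2.63 ± 0.57 for Slco1b2, -2.70 ± 0.71 for Slco2a1, -1.91 ± 0.89 for Abcb11 and -5.04 ± 1.31 for Abcb4, with adjusted p from 0.343 to 0.636. With a library left out these moved by over 1.5 times in fold, the range being -2.23 to -0.57 for Slc10a1, -3.07 to -1.89 for Slco1a1, -3.17 to -1.80 for Slco1b2, -4.03 to -2.03 for Slco2a1, -3.78 to -1.12 for Abcb11 and -10.02 to -4.04 for Abcb4. The smallest differences of the 3 carriers Slc10a1, Slco1a1 and Slco1b2 came without WT 40, that of Slco2a1 without KO 20 and those of both pumps without KO 8. Slco1a4 had 0 counts in both KO libraries against 2.05 and 2.69 CPM in WT, which at 3 counts per library is at least 11.4-fold lower. Slco2b1, the member led by HSCs, gave 0.00 ± 0.46 (adjusted p = 0.999). Abcc3 gave -0.45 ± 0.91 (adjusted p = 0.937).

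The hepatocyte markers in HSCs gave a median of -2.59 beside -2.58 for the members, with 0 of 11 past the threshold and 11 at an unadjusted p under 0.05. DESeq2 called 11 of these markers lower. The part of hepatocyte transcripts in the members' values was not tested. Among other genes of the pathway, Nr1h4, the bile acid receptor FXR, had 302 ± 41.6 CPM in HSCs (SD, n = 4) against 126 ± 22.4 CPM in hepatocytes, 0.12 ± 0.25 apart on the TMM scale (adjusted p = 0.717). It was higher in HSCs than in ECs (EC minus HSC -4.98 ± 0.30, adjusted p = 3.47e-07) and than in Kupffer cells (4.60 ± 0.30, adjusted p = 5.27e-07). Cyp27a1, the mitochondrial sterol 27-hydroxylase, had 156 ± 25.2 CPM in HSCs and 145 ± 27.7 CPM in Kupffer cells. Ptger2, a receptor for prostaglandin E2, had 186 ± 53.5 CPM in HSCs. Between labels 0 genes of the 5 lists passed in HSCs by edgeR, with 6, 5, 1, 4 and 3 at an unadjusted p under 0.05 among 9 synthesis, 9 regulator, 9 uptake, 10 efflux and 15 prostanoid genes. DESeq2 called 3 synthesis, 3 regulator and 1 efflux gene lower, 1 prostanoid gene higher and 0 uptake genes.

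In Kupffer cells, 0% of 13867 genes and 0 of 10 members were called between labels by edgeR, with 1 member and 706 genes at an unadjusted p under 0.05. DESeq2 called 0 members and 48 genes higher and 24 lower. The member was Abcc2, with 0.872 and 3.20 CPM in WT and 6.59 and 13.3 CPM in KO libraries (2.29 ± 0.81, adjusted p = 0.933). Both KO libraries were above both WT libraries in Abcc2, Slco1a1 and Slco2b1, that is, in 3 of 10 members beside 20.5% of genes. The median of the members was 0.59 and that of the hepatocyte markers 0.57. Abcc3 gave 0.42 ± 0.62 (adjusted p = 0.972), and -0.26 without library WT 31. Ptgs1 with 1190 ± 195 CPM, Hpgd, which breaks down prostaglandins, with 666 ± 96.0 CPM, and Tbxas1, the thromboxane synthase gene, with 436 ± 31.4 CPM were the prostanoid genes with the highest levels in Kupffer cells. Of 10 synthesis, 10 regulator, 9 uptake, 11 efflux and 15 prostanoid genes tested between labels in these cells, 0 passed by edgeR or DESeq2, with 1, 0, 0, 1 and 1 at an unadjusted p under 0.05.

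In hepatocytes, 0% of 11548 genes and 0 of 10 members were called by edgeR, with 3 members and 821 genes at an unadjusted p under 0.05. DESeq2 called 0 members, 13 genes higher and 19 lower. Both KO libraries were below both WT libraries in Slco1a1, Abcb4, Abcc2 and Abcc3, 4 of 10 beside 23.2% of genes, and above in Slc10a1, 1 of 10 beside 16.4%. The largest differences were Abcc3 at -0.96 ± 0.35, Abcb4 at -0.88 ± 0.20 and Abcb11 at -0.68 ± 0.44, followed by Slco1a1 at -0.63 ± 0.20, with adjusted p from 0.700 to 0.755. Kupffer cell markers in these libraries had a median of -0.996, with 10 of 10 below 0 and 5 at an unadjusted p under 0.05, and summed to 242 to 473 CPM in WT and 162 to 217 CPM in KO. Their part in the value of Abcc3 was not tested. Slc10a1 gave 0.29 ± 0.20 (adjusted p = 0.765). The median of the members was -0.45, beside 0.16 for the hepatocyte markers and -0.02 for all genes. Bile acid synthesis genes had a median of -0.06 over 10 tested genes, and the regulator genes -0.01 over 10. Without a filter on low counts 1 member passed, for which the share of all genes is not given here.

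**Figure D4:**
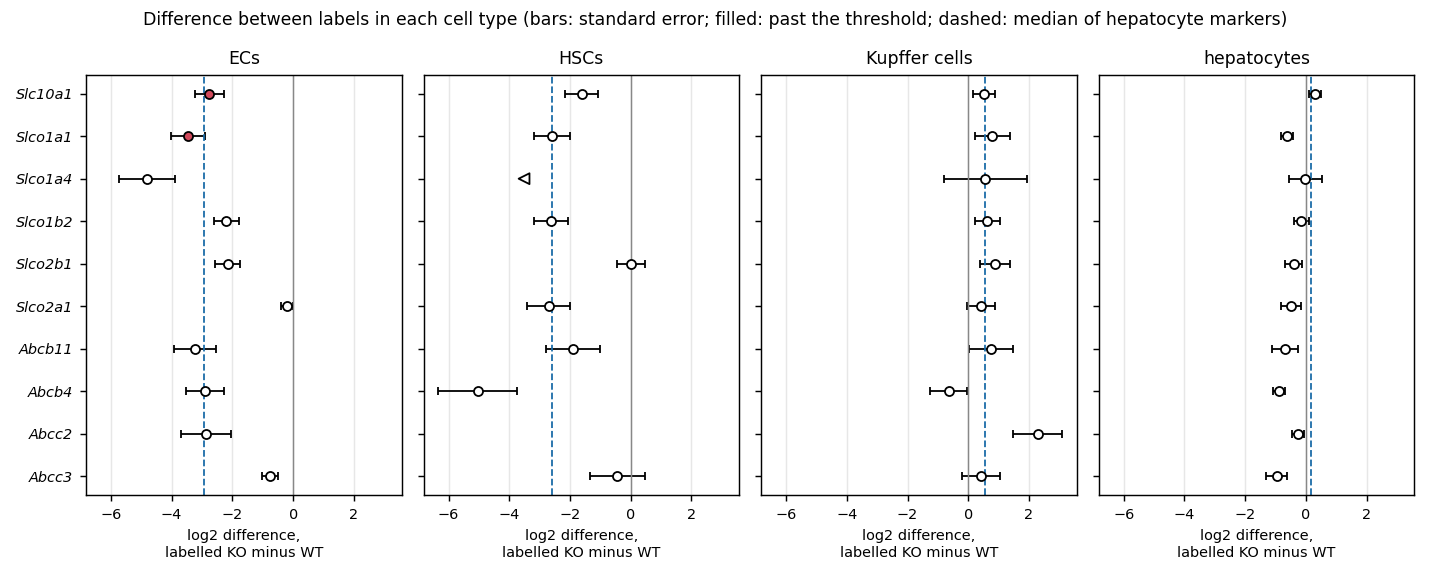
Log2 difference of each member between libraries labelled KO and WT in the 4 cell types, with standard errors; red points passed the adjusted threshold, the open triangle is the bound for Slco1a4 in HSCs (0 counts in KO) and the dashed blue line is the median of 11 hepatocyte markers. The dashed line is at -2.93 in ECs and -2.59 in HSCs. Members lie on both sides of it, from -4.81 to -0.20 in ECs and from -5.04 to 0.00 in HSCs. Slco2a1 in ECs and Slco2b1 in HSCs lie near 0.

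The difference between labels was also compared between cell types, as an interaction over all 16 libraries. EC against Kupffer cells gave 3 members, Slc10a1 (-3.30 ± 0.75, adjusted p = 0.0442), Slco1a1 (-4.28 ± 0.81, adjusted p = 0.0264) and Slco2b1 (-3.06 ± 0.70, adjusted p = 0.0475), where 2.07% of all genes passed. The other 5 pairs gave 0 members each by edgeR. Of all genes, 0.0349% passed for EC against HSC, 0.0697% for EC against hepatocytes, 0.593% for HSC against Kupffer cells, 0.0755% for HSC against hepatocytes and 0.0116% for hepatocytes paired with Kupffer cells. At an unadjusted p under 0.05 these had 2, 6, 8, 7 and 1 members. Of all 17214 genes tested, 835, 1570, 2018, 1232 and 1408 were under that value in the same order of pairs. DESeq2 called 0, 3, 6, 3 and 0 members. In the pairs with members called, it called 3.86%, 4.71% and 2.73% of all genes lower. Of the hepatocyte markers, 9 of 11 passed for EC against Kupffer cells, with a median of -3.48 beside -3.18 for the members.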

How the data were processed

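Read counts per gene were used as the authors deposited them, with 1 table of raw counts for each of the 16 libraries and no normalization. Per the labels, the submitters' processing notes name Trimmomatic 0.32, HISAT2 2.1.0, HTSeq 0.9.1 and edgeR with GRCm38; the annotation release and the strand setting are not given in the sources used here, and reads from a gene and an overlapping antisense partner may not be separated. The labels name a stranded mRNA kit, while the description of the series names Smart-seq2. Each table ends with 5 summary lines, which were left out of all totals. Of the gene identifiers, 98.9% were in GENCODE M21.

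Groups follow the labels for cell type and genotype. The members and gene lists were chosen with earlier results of these data known. CPM were computed over gene rows. All genes were tested with edgeR 4.0.16 in R 4.3.3 (filterByExpr, TMM, quasi-likelihood test), within a cell type for the labels and over the 16 libraries for cell types and interactions, and a Benjamini-Hochberg adjusted p under 0.05 was the threshold. The fits were first tested on simulated data with 200 altered genes. The fits were repeated with DESeq2 1.42.0, RLE size factors, library totals, no filter, a single fit over 16 libraries, WT libraries alone, and leaving out each library. Of the 12 hepatocyte markers chosen, 11 were used, and Tf was not analysed here. Genes of the other lists were named if past the threshold between labels, by size of change, and otherwise by level, at most 3 per list. For a member with a higher mean CPM in a sorted cell type than in hepatocytes, the 3 genes most like it were named. Genes singled out beside a marker value (Alb, Apoa1, Marco, Clec4f), and Ptgds, Nr1h4, Cyp27a1 and Abcc4 where compared between cell types, follow the lists but were described after their values were seen.

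With 2 libraries per group a permutation of labels cannot give a p under 0.05, and p-values come from the fits across all genes. Nothing says that libraries of different cell types came from separate livers, and tests over all 16 treat them as independent. Floors cover counting error only.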

Additional observations from a re-analysis of the deposited data

Results flagged for a closer look

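The difference between libraries labelled KO and WT was not the same in ECs as in Kupffer cells for 3 members, by an interaction term in edgeR over all 16 libraries. Slc10a1 differed by -3.30 on the log2 scale, Slco1a1 by -4.28 and Slco2b1 by -3.06. In ECs all 3 were below WT in both KO libraries, with Slco2b1 at 8.22 and 7.79 CPM against 23.8 and 48.0 CPM. In Kupffer cells both KO libraries were above both WT libraries for Slco1a1 and Slco2b1, the latter with 26.1 and 19.0 CPM against 6.64 and 17.6 CPM. The median of 11 hepatocyte markers went the same way, from 10.8% and 23.9% to 2.46% and 1.94% of the WT hepatocyte level in ECs and from 5.18% and 7.99% to 9.37% and 11.9% in Kupffer cells. With library totals in place of TMM, 1 of the 3 passed, Slco1a1 (adjusted p = 0.0434), and DESeq2 called all 3, beside 183 higher and 904 lower of all genes.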

How the results depend on the processing

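The multiples of the hepatocyte markers moved by less than the spread between libraries in 60 of 60 recomputations, with 851 hepatocyte-enriched genes as the reference or with TMM-normalized CPM. Of 351 recomputed member differences between labels 296 kept direction and side of the threshold, and of 780 between cell types 704 did. No paired analysis was possible because the groups compared share no replicate numbers.

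The number of members past the threshold between labels in ECs, 2 in the report, was 8 with DESeq2, 8 without a filter on low counts, 4 with all 16 libraries in a single fit and 0 with library totals, and 0 to 6 with a library left out (0 without KO 6 or KO 46, 6 without WT 34). In HSCs, with 0 in the report, it was 5 with DESeq2 (2.77% of all genes lower), 7 without a filter and 3 with all 16 libraries. In hepatocytes, also with 0, it was 1 without a filter. EC against HSC, with 4, gave 8 without a filter, 2 with WT libraries only and 3 to 7 with a library left out (7 without HSC WT 40). EC against Kupffer cells, with 3, gave 6 with DESeq2, 7 without a filter and 2 to 6 with a library left out (6 without Kupffer WT 31). HSC against Kupffer cells, with 9, gave 2 with WT libraries only. The interaction of EC and Kupffer cells, with 3, gave 7 with DESeq2, beside 183 higher and 904 lower of all genes, and 1 with library totals. DESeq2 gave 6 for HSC and Kupffer cells (4.71% of all genes lower), 3 for HSC and hepatocytes (2.73%) and 3 for EC and hepatocytes (3.86%), each with 0 in edgeR. Of all genes, DESeq2 called 3106 higher and 3261 lower for EC against Kupffer cells. Where the share of all genes under a setting is not given here or above, the count is not read as a result about the members. The cause of these changes in the counts was not tested.

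With WT libraries only, EC minus Kupffer cells turned positive for Slc10a1 (1.05), Slco1a1 (1.09), Slco1a4 (1.01), Slco1b2 (0.58), Slco2b1 (1.23), Abcb11 (0.22) and Abcc2 (1.79), none past the threshold in either direction, and so did EC minus HSC for Abcb11 (0.15) and HSC minus Kupffer cells for Abcb11 (0.063) and Abcc2 (0.62, past the threshold as -2.05 with all libraries). With library totals, Slco2b1 turned to 0.036 for EC minus Kupffer cells and 0.51 for HSC minus hepatocytes. Between labels, Slco2b1 in HSCs was -0.010 without a filter and -0.0058 with all 16 libraries, and Slco1a4 in hepatocytes was 0.018 with all 16 libraries. With a library left out, the range between labels was -0.53 to 0.61 for Slco2b1 and -2.64 to 0.39 for Abcc3 in HSCs, -0.38 to 4.49 for Slco1a4, -0.027 to 1.08 for Slco2a1, -1.27 to 0.49 for Abcb4 and -0.26 to 1.76 for Abcc3 in Kupffer cells, and -0.57 to 0.88 for Slco1a4 and -0.46 to 0.11 for Slco1b2 in hepatocytes. Between cell types it was -1.25 to 0.41 for Abcb11 in EC minus HSC, and -2.16 to 0.28 for Slco1a4 and -0.55 to 0.050 for Slco2b1 in EC minus Kupffer cells. None of these values was past the threshold with all libraries. At this depth Slco1a4, with 0 to 3 counts in EC and HSC libraries labelled KO, gives no precise fold.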
